A study of Mus musculus with 10 samples.

Results

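The major histocompatibility complex (MHC) and antigen presentation genes were taken as every gene name on the array that starts with H2- or equals B2m, Tap1, Tap2, Tapbp, Cd74, Ciita, Nlrc5, Erap1 or Cd1d1. The rule found 50 of the 35527 gene names on the array: 36 of class I, 12 of class II and 2 that carry an H2- name but encode neither (H2-Ke2 and H2-Ke6). The samples were infrarenal aortae of male C57BL/6J mice on a normal diet, operated on at 10 weeks of age and harvested on day 7. In the PPE group (5 mice), porcine pancreatic elastase at 1.5 U/mL was infused into the vessel for 5 min at 100 mmHg, a treatment that leads to aneurysmal widening, while the sham group (5 mice) received saline. RNA of 1 aorta (500 ng, Cy5, red channel) was hybridised to each two-colour array together with a universal mouse reference RNA (Cy3, green channel), without dye swaps. No allele or transgene is named for either group, so that the labelled difference is the infused solution, and the model is an acute enzymatic injury at 1 time point.

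Class I molecules are found on nearly all nucleated cells and pair a heavy chain with B2m to show peptides from inside the cell to CD8 T cells, while class II molecules are made mainly by dendritic cells, macrophages and B cells and show peptides from engulfed material to CD4 T cells. Class I peptides are cut by the proteasome or the immunoproteasome. They are pumped into the endoplasmic reticulum by Tap1 and Tap2 and loaded with the help of Tapbp. Class II chains travel with the invariant chain Cd74, and H2-DM exchanges its remnant for peptide while H2-O restrains H2-DM. Nlrc5 is the transactivator of class I genes and Ciita that of class II genes, and both are induced by interferon-gamma.

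Both families are read from promoters that hold short shared boxes, so the 150 bases before the start of 7 members of both classes that are described below are shown. The promoters of H2-Ab1, Cd74, Nlrc5 and Ciita are not shown. The sequences are RefSeq's, in build GRCm38.p6, written 5′ to 3′ on the strand of the gene, and capitals mark CCAAT (the letters bound by NF-Y), TGACG (the core of a CREB site) and GAAA followed, after any 2 bases, by a second GAAA (the repeat bound by interferon regulatory factors), each on either strand.
H2-K1, chr17:34000334-34000483, minus strand: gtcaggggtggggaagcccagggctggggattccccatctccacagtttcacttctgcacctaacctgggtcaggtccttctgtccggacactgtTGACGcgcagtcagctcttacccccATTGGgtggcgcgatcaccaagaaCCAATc
B2m, chr2:122147537-122147686, plus strand: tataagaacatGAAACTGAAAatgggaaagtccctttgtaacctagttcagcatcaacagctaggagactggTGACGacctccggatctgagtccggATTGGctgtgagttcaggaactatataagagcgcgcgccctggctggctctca
Tap1, chr17:34187406-34187555, plus strand: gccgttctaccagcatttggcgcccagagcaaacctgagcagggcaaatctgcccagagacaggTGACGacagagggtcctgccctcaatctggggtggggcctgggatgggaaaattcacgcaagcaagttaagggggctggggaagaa
H2-Aa, chr17:34287824-34287973, minus strand: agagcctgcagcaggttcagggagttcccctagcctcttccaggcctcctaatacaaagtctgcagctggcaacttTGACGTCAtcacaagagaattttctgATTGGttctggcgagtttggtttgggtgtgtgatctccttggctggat
H2-Eb1, chr17:34305717-34305866, plus strand: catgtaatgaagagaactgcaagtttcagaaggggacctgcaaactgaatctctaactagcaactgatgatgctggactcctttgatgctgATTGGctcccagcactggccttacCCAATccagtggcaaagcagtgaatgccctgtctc
H2-DMb1, chr17:34153041-34153190, plus strand: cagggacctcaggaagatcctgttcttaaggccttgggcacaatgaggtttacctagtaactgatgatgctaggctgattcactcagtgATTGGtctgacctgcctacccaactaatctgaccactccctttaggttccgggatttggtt
H2-Oa, chr17:34092229-34092378, plus strand: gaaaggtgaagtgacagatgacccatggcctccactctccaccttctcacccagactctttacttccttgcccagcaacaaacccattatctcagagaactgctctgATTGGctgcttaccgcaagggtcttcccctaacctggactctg
In the 250 bases before the start, CCAAT stood in 8 of the 8 class II members with a promoter entry and in 19 of 23 class I members, against 33.9% of the 32841 promoters searched. A member was counted where any of its promoter entries held the motif, whereas the percentages are over single entries. H2-DMa, for example, had an entry with CCAAT and another without. TGACG stood in 10 of 23 class I members and in 1 of 8 class II members (H2-Aa, where matches on both strands overlap), against 17.8% of all promoters. The GAAA repeat was found in 2 class I members (B2m and H2-T23) and 0 class II members, against 2.98% of all promoters. Only this exact form was searched, so a promoter without it, such as that of H2-K1, may still hold another site for these factors. Such matches describe the letters and not binding.

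Values below are log2 ratios of aorta over reference unless a channel is named, and changes are PPE minus sham on that scale with the SE of the limma fit. A gene was tested where the scanner marked its red spot as well above background on 5 arrays or more, and a change was called at an adjusted p under 0.01 over all 22520 gene names tested. Of the 50 members, 37 were tested, 25 were called higher in PPE, 2 lower and 10 were not called. Over all gene names tested, 13.8% were called higher and 9.96% lower. The median change of the tested members was 1.51, against 0.02 over all gene names tested, and 27 of the 37 were more than 2-fold higher, against 8.56% of all gene names. On 26 of the 37 the 5 PPE and 5 sham arrays did not overlap, as on 25.5% of all gene names. Because a name entered the test only where it had signal, these counts describe the tested members and not all 50. The calls depend on how dye bias was removed: with median centring in place of loess 1 member (Nlrc5) was called, and the median over all gene names moved to 0.41, with H2-K1 at 2.48, B2m at 2.45 and Cd74 at 2.84, each a larger change than with loess and none of the 3 called. Calls fell over the whole array in that setting, to 408 of 22520 gene names higher and 8 lower, against 3116 and 2243 with loess.

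**Figure D1:**
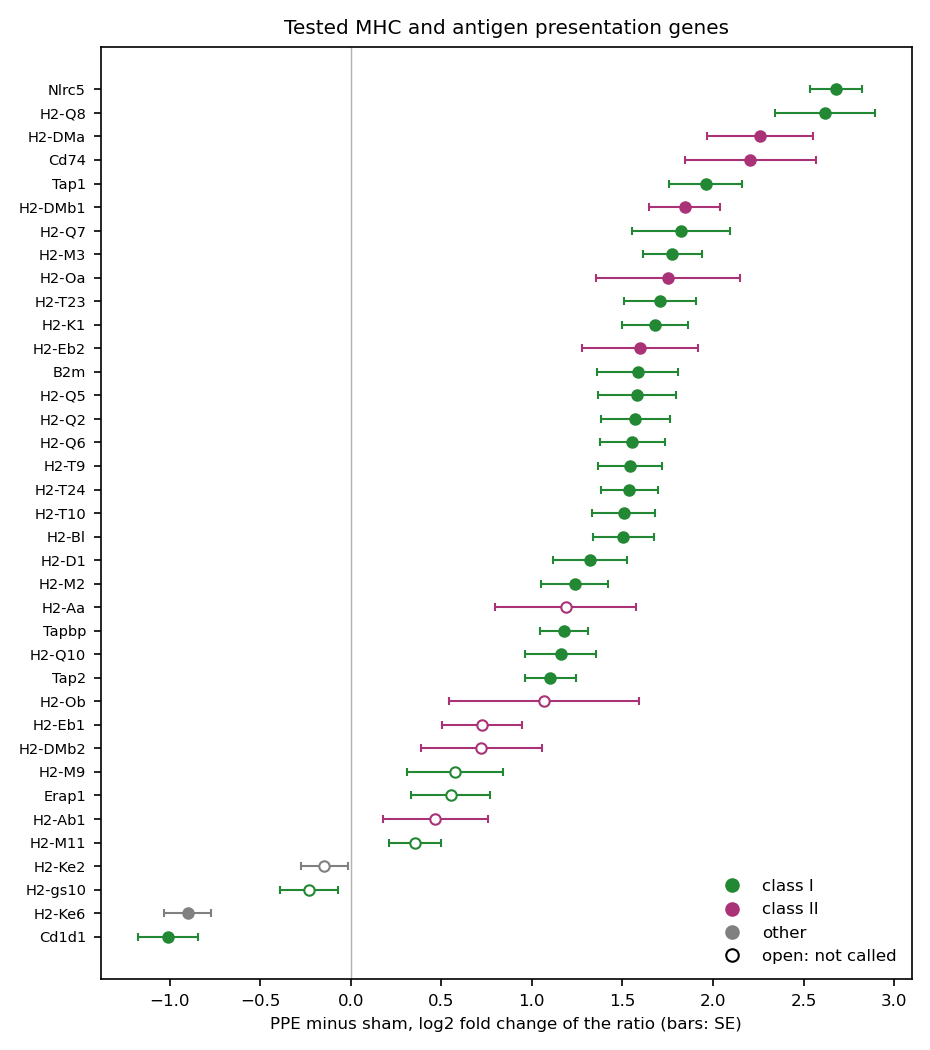
Change of each of the 37 tested members (x axis, PPE minus sham on the log2 scale, bars SE, 5 arrays a group), ordered by size and coloured by class, with open circles for genes not called. Most class I genes lie between 1.10 and 1.96, with Nlrc5 and H2-Q8 above, whereas the class II genes range from 0.47 to 2.26.

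The classical class I chains rose in every PPE aorta. H2-K1 stood at 1.67, 1.68, 1.80, 1.51 and 1.33 on sham arrays 1 to 5 and at 3.71, 3.69, 3.13, 2.96 and 2.89 on PPE arrays 1 to 5. The groups did not overlap, and the change was 1.68 ± 0.18 (SE, adjusted p = 3.48e-05, a 3.21-fold rise). Its probe lies on chromosome 17, bases 34133055 to 34133114 in mm9, and was printed 10 times on each array, where the SD among its spots was 0.0381 to 0.309. A second H2-K1 probe gave 1.68 as well, and after scale normalisation the change was 1.27 and missed the threshold (adjusted p = 0.0143). H2-D1, the other classical chain tested, rose by 1.32 ± 0.20 from 1.51 ± 0.21 (SD, n = 5) to 2.83 ± 0.45, without overlap.

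The light chain and the peptide transporter rose with the heavy chains. B2m, the light chain shared by all class I molecules, stood at 0.22, 0.60, 0.68, 0.68 and 0.19 on the sham arrays and at 2.64, 2.18, 2.11, 2.13 and 1.25 on the PPE arrays, a change of 1.58 ± 0.225 (adjusted p = 0.000222). By ratio, PPE 5 was the lowest PPE array and still lay above every sham array. In the red channel alone B2m rose by 1.06 ± 0.22 (adjusted p = 0.00231) and the groups overlapped, with PPE 5 at 15.23 and sham 4 at 15.26. Tap1, a transporter subunit, went from values between −0.95 and −0.37 in sham to values between 0.91 and 1.94 in PPE, a change of 1.96 ± 0.20. Tap2, its partner, changed by 1.10 ± 0.14 and Tapbp, the loading chaperone tapasin, by 1.18 ± 0.13. Erap1, which trims peptides in the endoplasmic reticulum, changed by 0.55 ± 0.22 and was not called (adjusted p = 0.0709), although without PPE replicate 5 it passed the threshold at 0.74 (adjusted p = 0.00441).

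Nlrc5, the class I transactivator, had the highest change by ratio of the tested members, read by its brighter probe; in the red channel alone it changed by 2.33, below H2-Q8 at 2.91, the mean of its probes gave 1.52, and without sham 1 it changed by 2.63 against 2.74 for H2-Q8. It stood at 0.22, 0.60, 0.27, 0.49 and 0.42 on the sham arrays and at 3.33, 3.08, 2.91, 2.72 and 3.36 on the PPE arrays. The PPE arrays were all at least 2.72 and no sham array passed 0.60, and the change was 2.68 ± 0.14 (adjusted p = 3.61e-07, 6.41-fold). A second, dimmer Nlrc5 probe (mm9 chromosome 8, bases 97030478 to 97030624, against 97051105 to 97051164 for the first) gave 0.37 ± 0.15 and was not called (adjusted p = 0.0748 over probes), so the change was read by 1 of its 2 probes. Ciita, the class II transactivator, was well above background on 1 sham and 2 PPE arrays and was therefore not tested; the intended comparison of Nlrc5 with Ciita could not be made.

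Of the 28 names for non-classical or class I-like chains, 17 were tested, 13 were called higher and 1 lower. H2-T23 (Qa-1, a ligand of the NKG2A receptor) rose by 1.71 ± 0.20, H2-M3, which presents formylated peptides, by 1.78 ± 0.16, and H2-Q7 (a Qa-2 chain) by 1.82 ± 0.27. H2-Q8, named here after its value was seen as the second-highest class I change, rose by 2.62 ± 0.28. H2-Q10 and H2-M2 were called at 1.16 and 1.24 by their brighter probes, while their other probes gave 0.50 (adjusted p = 0.547 over probes) and 1.43 (adjusted p = 0.0122 over probes). The 11 names that were not tested, among them 5 of the H2-M10 group known from vomeronasal neurons, were above background on 0 or 1 of the arrays of each group.

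Cd1d1, which presents lipids to natural killer T cells, went the other way. It stood at 3.83, 3.56, 3.51, 3.61 and 3.27 on the sham arrays and at 2.87, 2.87, 2.26, 2.56 and 2.17 on the PPE arrays. The groups did not overlap and the ratio fell by 1.01 ± 0.17 on the log2 scale (adjusted p = 0.000614), although the second Cd1d1 probe, at −0.57 ± 0.47, was not called (adjusted p = 0.398 over probes) and the mean of both probes (−0.79) did not pass the threshold. H2-Ke6 (Hsd17b8, an enzyme of mitochondrial fatty acid synthesis encoded within the MHC) was also lower, by 0.90 ± 0.13, from 1.18 ± 0.26 (SD, n = 5) to 0.28 ± 0.11. H2-Ke2, a prefoldin subunit from the same region, was at −0.14 ± 0.13 and was not called.

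Near-identical class I genes could share signal. Among the 62 probes of members, 6 class I names and 0 class II names had a probe with a run of 20 or more bases, or an accession, in common with a probe of another member. Probes were compared with each other and not with the transcripts of other members. A probe can match the transcript of another gene without sharing a run with that gene's probe, so these counts do not limit shared signal. The H2-T23 probe and the second H2-K1 probe shared a run of 29 bases, of which the first 24 are shown. The H2-K1 values given above by array come from its other probe, for which no such run was found.
Shared run, H2-T23 and H2-K1: tggagctgtggtggcttttgtgat
The changes of these probes were 1.71 and 1.68, and how far each reads the other gene was not tested. Nor was it tested for the other class I probes, so the called class I names need not be separate readings.

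**Figure D2:**
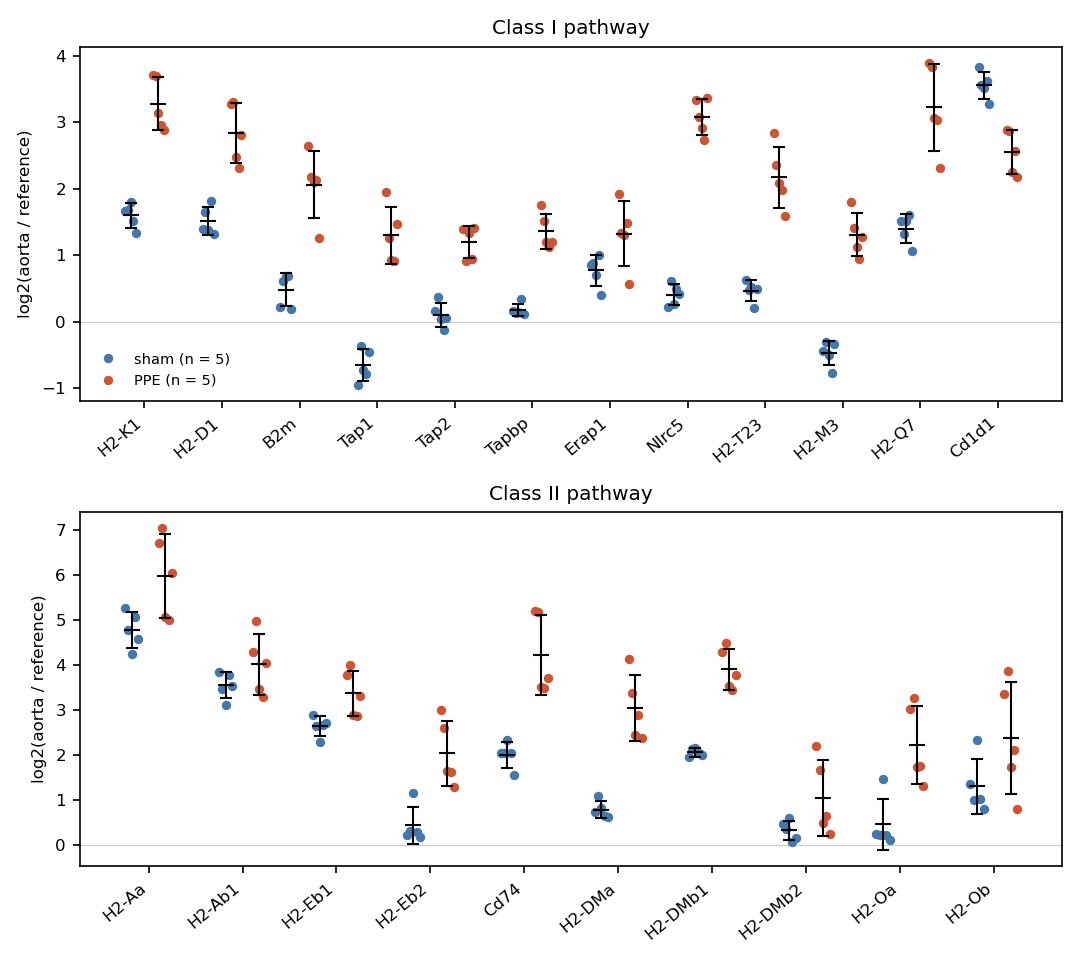
Log2 ratio of aorta over reference on each array (points; blue sham, red PPE, 5 arrays each; black bars mean and SD) for 12 class I and 10 class II genes. The groups separate for most class I genes, Cd1d1 is the gene with lower PPE values, and within the class II genes PPE 1 and PPE 2, drawn at the left of each group, lie above the other 3 PPE arrays.

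Of the 12 class II names 10 were tested, 5 were called higher and 0 lower. Their median change was 1.39, against 1.54 over the 25 tested class I names. Of the 10, 7 had an unadjusted p under 0.05, all of them higher, as had 9821 of all 22520 gene names in either direction. SAM called 0 of the 10 lower, against 3293 of 22489 gene names. Among the chaperones and exchange genes 4 of 6 were called. Cd74, the invariant chain, stood at 2.03, 2.05, 2.33, 2.06 and 1.55 on the sham arrays and at 5.19, 5.17, 3.52, 3.48 and 3.70 on the PPE arrays. PPE 1 and PPE 2 stood far above the other PPE arrays, no PPE array overlapped the sham arrays, and the change was 2.21 ± 0.36 (adjusted p = 0.000582). H2-DMa, a chain of the peptide exchanger, rose by 2.26 ± 0.29 and H2-DMb1, its partner, by 1.84 ± 0.19, both without overlap. After scale normalisation H2-DMa was the 1 class II member still called, with Cd74 at 1.65 (adjusted p = 0.0198). H2-DMb2, the other beta chain of H2-DM, was dimmer, above background on 2 sham and 3 PPE arrays, and its change of 0.72 ± 0.33 was not called.

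Of the 4 tested peptide-binding chains 1 (H2-Eb2) was called by ratio. H2-Ab1, the beta chain of I-A, stood at 3.85, 3.46, 3.11, 3.77 and 3.52 on the sham arrays and at 4.29, 4.98, 3.46, 3.28 and 4.05 on the PPE arrays. PPE 3 and PPE 4 lay within the sham range, and the change was 0.47 ± 0.29 (adjusted p = 0.247). H2-Aa, the alpha chain of I-A, stood at 4.78 ± 0.40 (SD, n = 5) in sham and 5.97 ± 0.93 in PPE, a change of 1.19 ± 0.39 (adjusted p = 0.0332), and H2-Eb1, the beta chain of I-E, changed by 0.73 ± 0.22 (adjusted p = 0.025), which passed the threshold with scan day as a block (0.60, adjusted p = 0.00918). The direction of the ratio was not stable for these chains either: H2-Aa was at −0.27 with the deposited log ratios and H2-Ab1 at −0.08 after scale normalisation, neither of them called. H2-Ea-ps, the I-E alpha gene that C57BL/6 mice do not express, was above background on 0 arrays. H2-Eb2, named after its value was seen as the called presenting chain, rose by 1.60 ± 0.32. It was dim, above background on 3 sham and 5 PPE arrays. The change missed the threshold in 5 of 23 alternatives, among them slide as a block (adjusted p = 0.0125), no background correction (adjusted p = 0.0118) and scale normalisation (adjusted p = 0.0251). In the red channel alone H2-Eb2 rose by 1.06 (adjusted p = 0.00246) and the groups overlapped, with sham 3 at 7.84 and PPE 4 at 7.70.

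The ratio, however, rests on the green channel, which held the same kind of reference RNA on every array. Each channel was therefore also examined on its own, after background correction and quantile normalisation between arrays, a step chosen after the data had been seen. On this scale the green signal of H2-Ab1 was 11.21, 12.50, 12.32, 11.63 and 12.03 on the sham arrays and 13.52, 13.13, 14.65, 14.56 and 14.23 on the PPE arrays. All 5 PPE arrays lay above all 5 sham arrays in the reference channel, by 2.08 ± 0.32 (adjusted p = 0.00677). Its red signal was 13.82, 14.72, 14.27, 14.12 and 14.17 in sham and 17.08, 16.98, 16.66, 16.44 and 16.40 in PPE. The aorta channel thus rose by 2.49 ± 0.18 (adjusted p = 7.36e-07), and the ratio held only the remainder.

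H2-Aa and H2-Eb1 behaved alike. In the red channel H2-Aa rose by 2.82 ± 0.26 and H2-Eb1 by 2.76 ± 0.21, and in the green channel by 2.18 ± 0.32 and 2.05 ± 0.30, with no overlap of the groups in either channel. H2-DMb1 rose by 2.67 ± 0.18 in red and 1.11 ± 0.17 in green. These 4 were the class II members whose reference signal was called higher, 4 of 10 in class II and 0 of 25 in class I by limma (4 at an unadjusted p under 0.05 and 2 by SAM), while 0.187% of all gene names tested were called higher in green. The same 4 members exceeded 1 on the log2 scale in green, as 88 gene names or 0.391% of those tested did, and all 88 were called higher in red. For H2-K1 the green signal differed by −0.17 ± 0.18 and the red signal by 1.60 ± 0.19. For Cd74 the green signal differed by 0.38 ± 0.27 (adjusted p = 0.995) and the red signal by 2.56 ± 0.30. For B2m the green signal differed by −0.56 ± 0.18 (adjusted p = 0.307) and the red signal by 1.06 ± 0.22, below its ratio change of 1.58. Over all gene names the green difference had its 1st and 99th percentiles at −0.64 and 0.58. Why the reference signal of these genes moved with the aorta signal was not tested. In the red channel alone 28 of the 37 members were called higher and 2 lower, with 12.5% of all gene names called higher; 8 of the 10 class II members were among them, and the class medians were 2.39 for class II and 1.43 for class I.

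**Figure D3:**
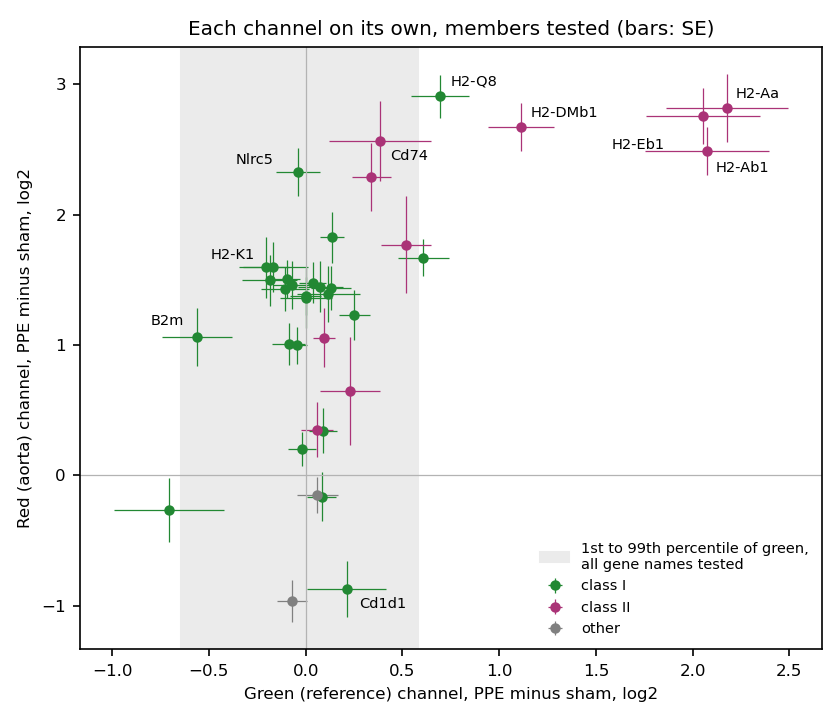
Change of each tested member in the red (aorta) channel on the y axis and in the green (reference) channel on the x axis, PPE minus sham on the log2 scale with SE bars, and the grey band from −0.64 to 0.58 holding the 1st to 99th percentile of the green change over all gene names tested. H2-Aa, H2-Ab1 and H2-Eb1 lie near 2 on the green axis and between 2.49 and 2.82 on the red axis.

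The planned pairs of a class I with a class II gene asked whether the classes moved apart within an array. By ratio, H2-K1 minus H2-Ab1 was −2.18, −1.78, −1.31, −2.26 and −2.20 on the sham arrays and −0.57, −1.28, −0.33, −0.32 and −1.17 on the PPE arrays. The groups did not overlap, and the difference rose by 1.21 ± 0.27 (two-sided exact permutation test, p = 0.00794, which is the lowest value that relabelling 5 against 5 arrays allows, and 0.0159 adjusted over the 2 pairs tested). In the red channel alone the same pair went the other way, at −0.89 (exact permutation p = 0.00794), so its direction depends on whether the reference is divided out. B2m minus Cd74 was −1.53 ± 0.20 (SD, n = 5) in sham and −2.15 ± 0.73 in PPE, a difference of −0.62 ± 0.34 (exact permutation p = 0.143), and −1.50 in the red channel (exact permutation p = 0.00794).

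Class II values also differed between slides. Slide 1 carried sham 1, PPE 1 and PPE 2 and slide 2 carried sham 2, sham 3, PPE 3 and PPE 4, while the other 3 arrays lay on slides of their own; slide 1 was also scanned on another day. The median change within slide 1 was 2.35 for the 10 class II members and 1.74 for the 25 class I members, and within slide 2 it was 0.71 and 1.25. The signed change was higher on slide 1 for all 10 class II and 23 of 25 class I members. For Cd74 the change was 3.15 on slide 1 and 1.30 on slide 2, for H2-Ob 2.26 and 0.26, and for Nlrc5 2.98 and 2.38. Each of the 25 members called higher was higher within both slides. Over the 3116 gene names called higher the medians were 1.28 and 1.11. PPE 1 was the highest PPE array for 20 of 25 class I members, and PPE 1 or PPE 2 for all 10 class II members. With 1 sham array on slide 1, mouse and slide cannot be told apart. Without the 3 arrays of slide 1, 3 class II members were called (main 5) and the class II median was 0.87. Over all 22520 gene names tested, 2029 were then called higher, against 3116 with all arrays.

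**Figure D4:**
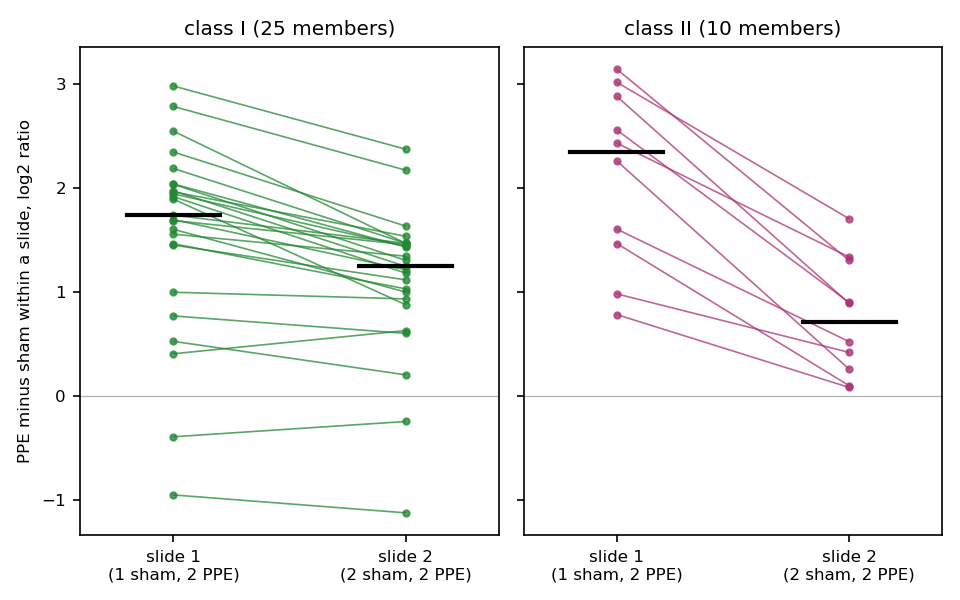
PPE minus sham within each of the slides that carried both groups (y axis, log2 ratio), with 1 line per tested member and black bars at the class medians. Every class II line falls from slide 1 to slide 2, from a median of 2.35 to 0.71, while the class I medians are 1.74 and 1.25.

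H2-Oa and H2-Ob, the chains of the H2-DM inhibitor that is known mainly from B cells, stood out by 1 sham aorta. H2-Oa was at 0.25, 0.24, 1.48, 0.23 and 0.12 on the sham arrays and at 3.02, 3.26, 1.73, 1.77 and 1.31 on the PPE arrays. Sham 3 overlapped PPE 5, and the change of 1.75 ± 0.40 was called (adjusted p = 0.00487) but missed the threshold when any of sham 1, 2, 4, 5 or PPE 1 was left out (highest adjusted p = 0.0148), with slide as a block (1.69, adjusted p = 0.0216) and after scale normalisation (1.34, adjusted p = 0.0595). H2-Ob was at 1.35, 1.005, 2.33, 1.03 and 0.81 on the sham arrays and at 3.36, 3.86, 1.73, 2.12 and 0.79 on the PPE arrays, so that PPE 5 lay below every sham array, and its change of 1.07 ± 0.53 was not called (adjusted p = 0.143). The mean of 8 tested B cell markers was 1.36 on sham 3 and 2.29 on PPE 2, against −0.03 to 0.23 on the other sham arrays and −0.03 to 0.69 on the other PPE arrays. None of the 8 B cell markers (Ms4a1, Cd79a and others) was called by limma, and SAM called 1. Of the 8, 1 (Fcrla, adjusted p = 0.0295) had an unadjusted p under 0.05, against 9821 of all 22520 gene names. The part of the B cell markers in the H2-O values was not tested.

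**Figure D5:**
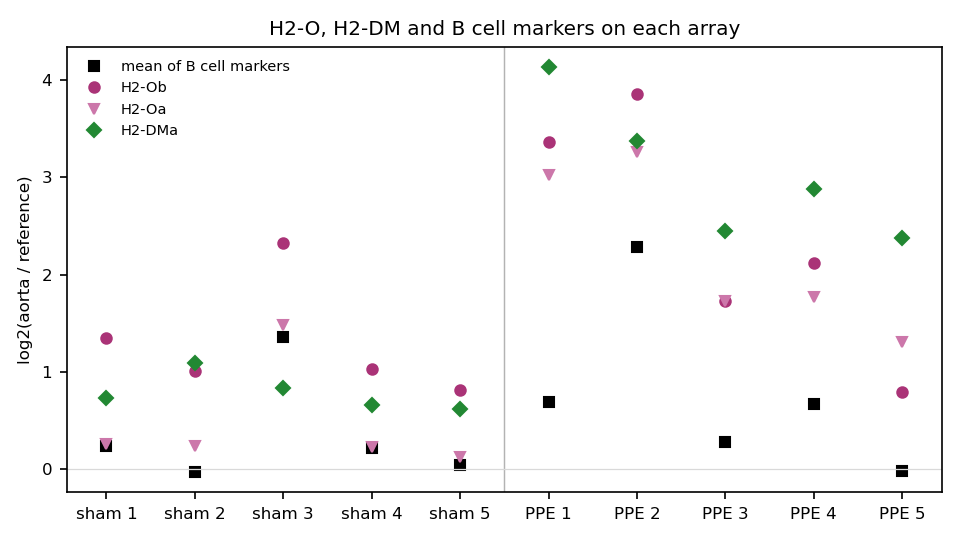
Log2 ratio on each of the 10 arrays (x axis) for H2-Oa, H2-Ob and H2-DMa and for the mean of 8 B cell markers. Sham 3 is the highest sham array for H2-Oa (1.48), H2-Ob (2.33) and the B cell mean (1.36), but not for H2-DMa, and PPE 2 is the highest array for the same 3 series.

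Genes around the members were read from lists of their own, where 13.8% of all gene names tested were called higher and 9.96% lower. Of 12 genes for class I peptide supply and loading, 10 were called higher, with the immunoproteasome subunits Psmb8 at 2.27 ± 0.24, Psmb9 at 2.15 ± 0.19 and Psmb10 at 1.48 ± 0.12 and the activator subunit Psme1 at 1.18 ± 0.22. The list median was 0.83. Canx (calnexin, −0.05) and Lnpep (0.37) were not called. Of 11 tested genes for class II processing, 7 were called higher, led by Ctss (cathepsin S, which cuts Cd74 free, 5.12 ± 0.32), Ifi30 (the lysosomal thiol reductase, 2.77 ± 0.20), Lgmn (legumain, 2.58 ± 0.10) and Ctsb (cathepsin B, 1.47 ± 0.23), with a median of 0.98.

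Of 11 tested regulators of MHC transcription, 4 were called higher, against 13.8% of all gene names tested. Among the 4 were Irf8 (2.43 ± 0.23), Irf1 (2.05 ± 0.17) and Irf2 (1.03 ± 0.24). The 3 RFX and 3 NF-Y subunits, known as factors of MHC promoters, were not called and lay between −0.20 (Rfxap) and 0.37 (Nfya). All 5 genes of the interferon-gamma list were called higher. Ifng itself was above background on 1 of 5 sham and 5 of 5 PPE arrays, at 0.14 ± 0.105 (SD, n = 5) and 2.96 ± 0.98, and so entered the test through the PPE arrays; the receptor chain Ifngr1 rose by 1.36 ± 0.19. Among 10 tested co-stimulatory and co-inhibitory genes 8 were called higher, including Icos (3.19 ± 0.34), Cd40 (2.81 ± 0.26), Cd86 (2.52 ± 0.11) and Cd80 (1.78 ± 0.13). Ctla4, also among the 8, was above background on 0 sham arrays and entered the test through the PPE arrays. Of 8 tested genes listed as MHC receptors 5 were called higher, among them Klrd1 (4.07 ± 0.37). Lilrb4 (4.32 ± 0.18), also among the 5, was counted by its place on the list, and whether it binds MHC was not examined here. Pirb and Pira1, listed as well, were not on the array. Klrk1, also among the 5, was above background on 0 sham arrays and entered the test through the PPE arrays. Cd4 (0.76 ± 0.22, adjusted p = 0.0203) and Cd8a (1.76 ± 0.46, adjusted p = 0.0109) were not called. Cd8b1, the other CD8 chain, was called (1.50 ± 0.38, adjusted p = 0.00879).

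Cell type markers moved as well, where 13.8% of all gene names tested were called higher and 9.96% lower. Smooth muscle markers, which define the aortic wall, were all detected in sham but 6 of 8 were lower in PPE, and their mean went from 3.23 to 4.23 over the sham arrays to 1.71 to 2.88 over the PPE arrays. Markers of macrophages (7 of 10 higher, mean 1.25 to 1.80 in sham and 2.999 to 4.20 in PPE), dendritic cells (6 of 9, 0.62 to 1.01 and 1.94 to 3.13), T cells (6 of 9, −0.91 to 0.28 and 0.91 to 2.01), NK cells (5 of 7, 0.10 to 0.73 and 2.29 to 3.96) and neutrophils (5 of 7, 0.44 to 0.63 and 2.78 to 3.83) were higher. Some of these calls entered the test through the PPE arrays. Eomes of NK cells was above background on 0 sham arrays, and Mpo and Cxcr2 of neutrophils on 1. Among fibroblast markers 3 of 6 were higher. Of 7 endothelial and 6 adipocyte markers 0 were called, with Cdh5 (adjusted p = 0.0167) and Plin1 (adjusted p = 0.0962) nearest to the threshold. At an unadjusted p under 0.05 the endothelial and adipocyte counts were 1 and 3, where 9821 of all 22520 gene names passed. SAM called 1 and 0, where it called 4943 higher and 3293 lower of 22489 gene names. Adipocyte markers were abundant on every array (mean 4.33 to 6.36). Defining markers that were not tested for lack of signal were Pax5 and Blk of B cells, Xcr1 of dendritic cells and Trat1 of T cells. In whole tissue, more cells of a type and more RNA per cell cannot be told apart, and the part of these cell types in the MHC changes was not tested.

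Signal was well above background for 37.6% (sham 5) to 65.8% (PPE 1) of red spots, and no spot of a member was saturated on any array. The precision of all values is limited by 5 arrays a group, each from 1 mouse.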

How the data were processed

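Each array held 1 aorta; the scanner files give the authors' spot intensity values (deposited from Agilent Feature Extraction 10.7.3.1, mean and background signals and flags) and a log10 ratio of processed red over green. The deposited series matrix holds log2 values that equal the log2 ratio of the processed signals within 0.0001 for 100% of spots. The authors excluded arrays of poor quality and eliminated outliers by clustering as their methods state, which can narrow the spread within groups.

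Intensities were corrected with normexp (offset 50) and normalised by loess within arrays in limma 3.58.1 (R 4.3.3); control spots and outlier flags had no weight. Spots of a probe were averaged and the brightest tested probe represented a gene name. PPE and sham were compared with limma's lmFit and eBayes, Benjamini-Hochberg over all gene names, in place of the authors' SAM, which was run as an alternative. Other alternatives were another normalisation or filter, slide, scan day or replicate block, leaving out arrays, and the red channel alone. Pairs of genes were compared by exact permutation. Scripts were tested on simulated data.

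Named genes were the main chains, loading genes and transactivators, the extremes of each class, members called lower and members whose probes disagreed; from the other lists up to 4 called genes with the largest changes. The members and lists were chosen with earlier results of these data known. Probe positions are those of the files (mm9); exon and UTR annotation of that build was not used here. Some genes of the other lists are not reported here by name.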

Additional observations from a re-analysis of the deposited data

Results flagged for a closer look

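In 88 groups of 5 arrays (named members and marker or pathway means, each in sham and in PPE), 5 held an array whose gap to its neighbour, divided by the range of the group, exceeded Dixon's critical value of 0.71, and chance alone would give about 5% of groups. H2-Oa in sham had sham 3 at 1.48, with the next array at 0.25. H2-Eb2 in sham had sham 3 at 1.15, with the next at 0.32. The mean of the B cell markers in sham had sham 3 at 1.36, with the next at 0.23. Tapbp in sham had sham 4 at 0.34, with the next at 0.16. The mean of the smooth muscle markers in PPE had PPE 2 at 2.88, with the next at 1.91.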

How the results depend on the processing

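Median centring in place of loess moved the median of all gene names from 0.02 to 0.41, left 98.1% of all calls higher (main 58.1%), and called 1 member higher, 0 lower, 1 of class I (Nlrc5) and 0 of class II, with a class I median of 2.07. Over all 22520 gene names it called 408 higher and 8 lower (main 3116 and 2243). Scale normalisation after loess called 1 member lower and 1 class II member higher, where over all gene names it called 1876 lower and 2411 higher. The mean of tested probes called 1 lower, where over all gene names it called 2216 lower (main 2243). Without a filter on dim probes the class I median was 1.17. The class II count was 3 with slide as a block, 3 without the 3 arrays of slide 1 and 8 in the red channel alone, with class II medians of 0.87 without slide 1 and 2.39 in the red channel. In the same order, 3146, 2029 and 2814 of all gene names were called higher (main 3116). H2-K1 minus H2-Ab1 was −0.89 (exact permutation p = 0.00794) in the red channel and 1.29 (exact permutation p = 0.0571) without slide 1. B2m minus Cd74 passed 0.05 with the deposited log ratios and the series matrix (−0.79, exact permutation p = 0.0476) and in the red channel (−1.50). The cause was not tested in any of these.

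Leaving out each array in turn gave 24 to 26 members called higher, 2 lower, 20 to 21 of class I, 4 to 5 of class II, medians of 1.40 to 1.58 and 1.18 to 1.62, H2-K1 minus H2-Ab1 of 1.11 to 1.37 and B2m minus Cd74 of −0.82 to −0.41 (lowest exact permutation p = 0.0397, without PPE 4). With the replicate block 26 members were called higher, among them the same 25, and it changed no count by over 1.5 times. The correlations of same-numbered deviations ran from −0.30 to 0.52, and replicate 5 alone was best matched by its own number. Slide and scan day also differed between arrays, so these correlations cannot show whether the numbers pair mice. SAM called 27 higher, the same 25 among them, and 7 of class II. Over all gene names SAM called 4943 of 22489 higher, against 3116 of 22520 by limma. Members called by ratio and named in the text kept their direction under every alternative run. Dim genes such as Ciita and H2-DMb2 are limited by signal over background.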
